A study of Mus musculus with 15 samples.

Results

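Chemokines, interleukins and tumor necrosis factor (TNF) family proteins are the secreted and membrane-bound signals with which epithelium and immune cells address each other, and the genes for these signals and their receptors were examined in mouse endometrial epithelial organoids. Members were taken by gene symbol, as every gene of the deposited table named *Ccl*, *Cxcl*, *Ccr*, *Cxcr*, *Il*, *Tnfsf* or *Tnfrsf* followed by a digit. This gave 113 members of the 16729 genes in the table, of which 77 had a mean normalized count of at least 10 over the 15 samples and were tested. The remaining 36 lay below that level. By role the members were 27 chemokine ligands (16 tested), 8 chemokine receptors (4 tested), 19 interleukins (12 tested), 33 interleukin receptor chains, antagonists and binding proteins (26 tested), 7 TNF superfamily ligands (4 tested), 18 TNF receptor superfamily genes (14 tested) and the interleukin-induced enzyme gene *Il4i1*. Names outside these patterns, such as *Csf1* or *Lifr*, were kept apart as a list of related genes.

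RNA sequencing was performed on organoids grown from uterine epithelium in Matrigel, a basement membrane gel. Both *Smad2* and *Smad3* were floxed on each allele in all mice. Control mice (*Smad2* flox/flox; *Smad3* flox/flox) had no Cre recombinase, and their organoids received DMSO vehicle (control + vehicle, n = 3) or A83-01 (control + A83-01, n = 4). Mice termed *Smad2/3* cKO carried the same floxed alleles together with *Ltf*-cre, and their organoids also received DMSO vehicle (*Smad2/3* cKO + vehicle, n = 4) or A83-01 (*Smad2/3* cKO + A83-01, n = 4). A83-01 inhibits the kinases ALK4, ALK5 and ALK7, the type I receptors that phosphorylate SMAD2 and SMAD3 after TGFβ, activin or nodal binds. As a model, the knockout depends on Cre from the lactoferrin gene *Ltf*, which is active in the uterine epithelium of adult females. The organoids were grown from epithelium separated from the uterus, in a medium that contained added growth factors. The comparisons ask which of these signals change when the SMAD2/3 branch is blocked by a drug or by deletion.

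Chemokines steer leukocytes along gradients by binding G protein-coupled receptors, interleukins signal through paired receptor chains that mostly engage JAK kinases and STAT factors, and TNF family ligands bind trimeric receptors that feed into NF-κB or cell death. In the uterus, epithelial chemokines and cytokines of these families govern the arrival of neutrophils, macrophages and lymphocytes during the cycle and around implantation. TGFβ is a known regulator of immune signaling in many epithelia.

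Values are normalized counts, the estimated read counts per gene divided by a size factor per sample. The sums per sample ran from 20241771 to 24423127 and replicates correlated at 0.914 to 0.97. Members together made up 0.285% to 0.564% of a library. All 7 epithelial markers examined were present in every group, with sums of 99453 to 225798 normalized counts, while 8 of 9 markers of T, B and NK cells were not in the table. The summed level of 6 stromal markers was 31.8 to 158 in control + vehicle and 4.79 to 58 in control + A83-01. In *Smad2/3* cKO organoids it was 7.43 to 18.9 under vehicle and 6.49 to 94.7 with A83-01. Of these 6 markers 2 had a mean of at least 10. The part of stromal cells in the members' values was not tested. Whole-gene values do not check the deletion of floxed exons: under vehicle *Smad2* averaged 1171 ± 149 in the 3 control and 875 ± 43.8 in the 4 *Smad2/3* cKO samples (mean ± SD), and *Smad3* 1624 ± 107 and 1576 ± 333.

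A library stood apart for these genes. *Smad2/3* cKO + vehicle replicate 2 held 12 of the 113 members (10.6%) at 10 or more and at least 3 times above every other library, against 140 of all 16729 genes (0.837%). Across the remaining 14 libraries, *Smad2/3* cKO + A83-01 replicate 2 alone had such a member, *Cxcl12*, the ligand of *Cxcr4*, at 44.7. In the *Smad2/3* cKO + vehicle library the highest of the 12 was *Ccl6*, at 341 against 0 to 3.72 elsewhere, and it was the only tested one. *Ccl17* was at 49, *Ccl7* at 48, *Il1b* at 41.2, *Ccl4* at 40.1 and *Ccl3* at 34. *Ccl12*, *Ccl9*, *Tnfrsf13b*, *Il21r*, *Il22* and *Ccl22* lay between 10.6 and 23.8. Markers of macrophages and dendritic cells were high in the same library: *Lyz2* read 3372 there and 0 to 86.9 elsewhere, *Adgre1* 351 and 0 to 9.01, and *C1qa* 155 and 0 in all other libraries. The summed level of the 9 macrophage and dendritic cell markers ran from 14314 to 31911 over the *Smad2/3* cKO + vehicle libraries and from 9876 to 50190 over the others, with *Cd14* and *Cd68* high in all groups and 2 of the 9 markers at 0 in every sample of the other 3 groups. The 3 neutrophil markers in the table summed to 328 to 6734 over the *Smad2/3* cKO + vehicle libraries and to 186 to 1910 over the others. The part of macrophages, dendritic cells or neutrophils in these 12 values was not tested. The plot of the 12 members by sample shows that they share this library, and counts with and without it are given below.

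**Figure D1:**
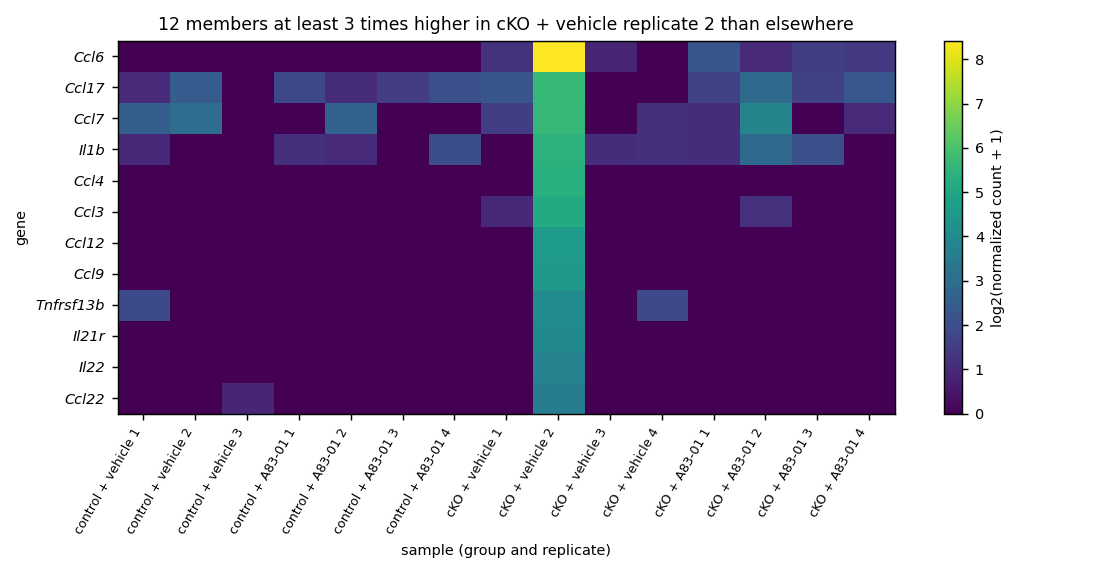
Color shows the log2 of the normalized count plus 1 of the 12 members (vertical axis) in each of the 15 samples (horizontal axis, groups and replicates). *Ccl6* reached 341 in *Smad2/3* cKO + vehicle replicate 2 and at most 3.72 elsewhere, and the other 11 members were at 10.6 to 49 in that library.

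The baseline repertoire of control + vehicle organoids was led by a small set of epithelial signals, compared here as mean normalized counts per kilobase of exon. *Il1a*, the alarmin interleukin-1α, had 6111 per kilobase and *Il1f6*, which encodes interleukin-36α, had 6094. *Tnfrsf12a*, the receptor of the ligand TWEAK, followed with 4182 per kilobase, and *Cxcl5*, a neutrophil attractant, with 4180. *Ccl20*, the ligand of CCR6, had 3008 per kilobase and *Cxcl16*, a membrane-anchored chemokine, had 2829. *Cxcl17*, *Il4ra*, *Cxcl1* and *Tnfrsf23* completed the 10 highest with 1015 to 1591 per kilobase. Neighbors in this order did not separate, since the SD of *Cxcl5* (4857 normalized counts around a mean of 7787) and of *Il1f6* (2196 around 5381) spanned several ranks. TNF ligands and chemokine receptors were lower, with *Tnfsf13*, which encodes APRIL, at 246 per kilobase in control + vehicle, *Tnfsf9*, the ligand of 4-1BB, at 160, and the receptors *Ccr1* and *Cxcr5* at 40.4 and 7.67 per kilobase. *Il6st*, the shared signaling chain gp130 of the interleukin-6 family, had a level of 460 per kilobase. The members nearest the filter were *Cxcr4* (mean of 12.1 over the 15 samples) and *Cxcr3* (13) above it, and *Il1r1* (9.43) and *Tnfrsf4* (9.26) below it.

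**Figure D2:**
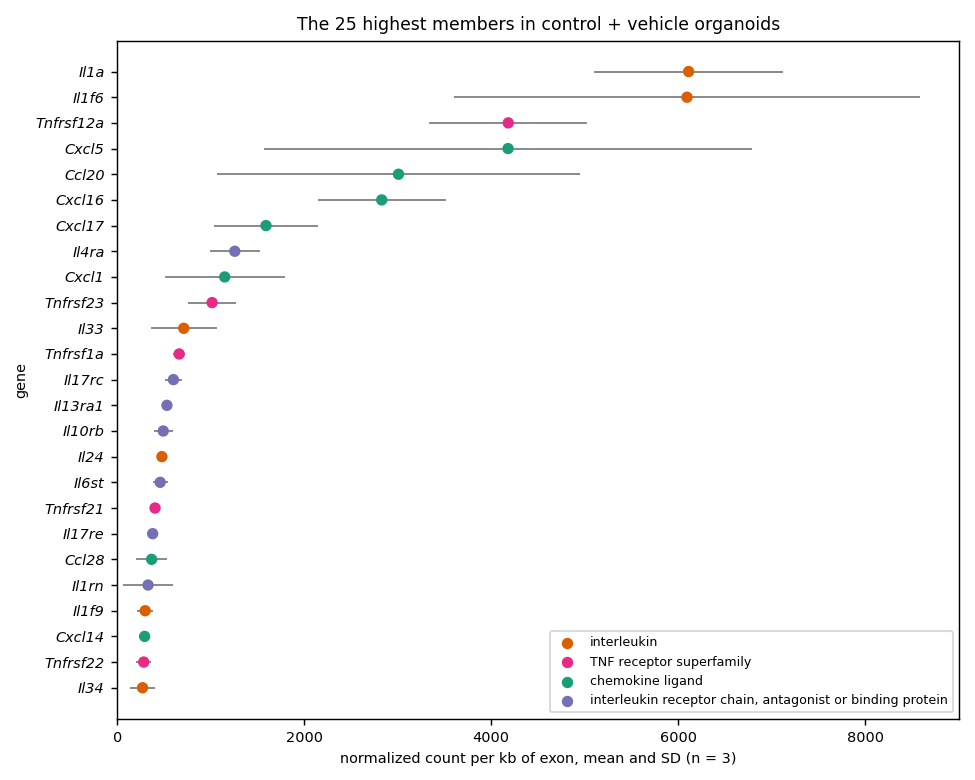
Points show mean normalized counts per kilobase of exon (horizontal axis, linear) for the 25 highest members in control + vehicle organoids and bars the SD (n = 3), colored by role. *Il1a* and *Il1f6* lead at 6111 and 6094 per kilobase, and the wide bars of *Cxcl5* and *Ccl20* overlap those of their neighbors.

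In control organoids A83-01 changed 5 of the 77 tested members (6.49%) by the thresholds used throughout, which asked for a Benjamini-Hochberg adjusted p from limma under 0.01 together with a fold over 1.4 or under 0.714. Over all 13066 genes tested the same thresholds called 642, or 4.91%. *Tnfrsf19* and *Tnfrsf18* rose (2.6% of members, against 3.05% of all genes), and *Il4ra*, *Il18rap* and *Cxcr4* fell (3.9%, against 1.86%). A further count, without adjustment, gave 29 members (37.7%) with a p below 0.05, against 26% of all genes. Deletion of *Smad2* and *Smad3* under vehicle changed 13 of 77 members (16.9%), against 1207 genes or 9.24% of all tested. Of these, 7 were higher (9.09%, against 5.17% of all genes) and 6 lower (7.79%, against 4.07%). There 32 members (41.6%) had an unadjusted p below 0.05, against 32.1% of all genes. The samples of the groups did not overlap for 23 members (29.9%) with A83-01 and for 30 (39%) with deletion, where 21.6% and 30.7% of all genes did not overlap. The median log2 fold change of the members was -0.12 with A83-01 and -0.03 with deletion, beside -0.01 and 0.01 for all genes. The drug and the deletion are both set against the same 3 vehicle-treated control samples, so their values are side by side and not separate evidence. Leaving out control + vehicle replicate 1, 2 or 3 left 2, 3 and 2 members called with A83-01 (2.63%, 3.95% and 2.63% of members, against 2.52%, 2.08% and 3% of all genes). With deletion it left 3, 5 and 8 members (3.95%, 6.58% and 10.5%, against 4.83%, 4.8% and 6.56% of all genes), so that without replicate 1 the share of members was below that of all genes. Without *Smad2/3* cKO + vehicle replicate 2, the library that stood apart, 3 and 11 members were called (3.95% and 14.5%, against 4.66% and 6.82% of all genes), and without replicate 4 of that group 7 were called for deletion (9.09%, against 5.6%). Control samples with the same replicate number deviated together, and the fit varied with how this was treated. With the samples of these 2 groups alone A83-01 changed 3 members, with the replicate block added to that fit 2 (*Tnfrsf19* and *Il4ra*), and with all 15 samples blocked on label number 13, among them the 5 called here.

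**Figure D3:**
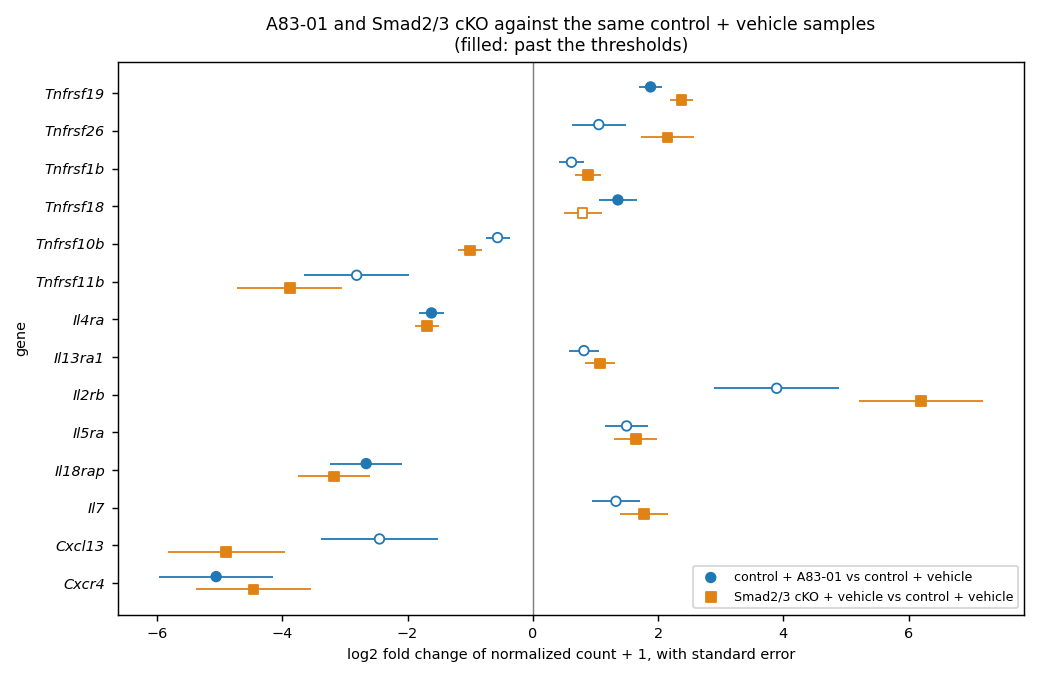
Horizontal axis, log2 fold change of the normalized count plus 1 with its standard error, for the 14 members past the thresholds in either comparison (circles, A83-01 in control organoids; squares, *Smad2/3* cKO + vehicle; filled, past the thresholds). All 14 pairs of symbols lie on the same side of 0 and share their control samples; *Tnfrsf19* stands at 1.88 and 2.38 and *Il4ra* at -1.62 and -1.69.

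*Tnfrsf19* and *Il4ra* kept their calls under every alternative and every left-out sample, and their promoter sequences are shown here for that reason, as the bases before the start sites given by RefSeq on GRCm38.p6. *Tnfrsf19* has 2 starts, chr14:61046856-61047105 outside the gene and chr14:61037988-61038237 inside it, both on the minus strand. For *Il4ra* the window chr7:125552021-125552119 on the plus strand holds the 99 bases that lie before annotated exons. Capitals mark the SMAD box GTCTG or its reverse complement and the GC-rich SMAD motif GGCGCC.
Tnfrsf19, outer start: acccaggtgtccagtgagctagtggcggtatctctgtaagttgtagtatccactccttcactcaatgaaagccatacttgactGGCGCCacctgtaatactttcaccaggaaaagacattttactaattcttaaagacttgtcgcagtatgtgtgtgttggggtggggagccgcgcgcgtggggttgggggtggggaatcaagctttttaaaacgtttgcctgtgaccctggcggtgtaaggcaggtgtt
Tnfrsf19, inner start: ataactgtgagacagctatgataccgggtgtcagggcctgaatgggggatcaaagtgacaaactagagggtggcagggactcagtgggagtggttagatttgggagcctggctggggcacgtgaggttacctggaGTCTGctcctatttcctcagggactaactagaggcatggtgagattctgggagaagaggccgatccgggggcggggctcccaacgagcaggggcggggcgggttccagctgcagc
Il4ra: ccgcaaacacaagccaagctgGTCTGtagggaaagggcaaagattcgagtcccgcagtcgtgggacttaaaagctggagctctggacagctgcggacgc
The SMAD box was searched on both strands of 250 bases before the start of 27025 genes and occurred in 42.1% of them. Of 86 members with an entry, 35 (40.7%) held it, and GGCGCC was found in 4.65% of members and 9.54% of all promoters. The AP-1 letters TGANTCA occurred in 15 of 86 members (17.4%) and 6.87% of all, and the NF-κB consensus in 9 of 86 (10.5%) and 3.75% of all. These matches are letters in a window, and binding was not measured in these samples.

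Among the TNF receptors, *Tnfrsf19* (ENSMUSG00000060548, GRCm38 chr14:60963875-61046490, minus strand), which encodes the orphan receptor TROY found in several epithelial stem cell compartments, gave the clearest rise. It read 655, 620 and 1001 normalized counts in control + vehicle and 2332, 2336, 3019 and 3366 in control + A83-01. The *Smad2/3* cKO samples read 3658, 4460, 3590 and 3747 under vehicle and 4423, 3463, 3453 and 3233 with A83-01. Every sample that had received A83-01 or lost the SMADs lay above every control + vehicle sample. The level was 3.68-fold higher with A83-01 (log2 fold change 1.88, SE 0.18, limma adjusted p = 1.63e-05) and 5.19-fold higher with deletion (2.38, SE 0.18, adjusted p = 1.14e-06). Adding A83-01 to *Smad2/3* cKO organoids gave a log2 difference of -0.09 (SE 0.17, adjusted p = 1). The effect of A83-01 differed between genotypes by -1.97 (SE 0.25, adjusted p = 0.000863), the only member past the thresholds for that difference, where 72 genes (0.551%) passed, 0.0995% of all genes higher and 0.452% lower. At an adjusted p below 0.05 that difference held for 3 members, against 208 genes (1.59%).

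4 more receptors of this family passed with deletion. Of the 14 tested, 3 rose (21.4%, against 5.17% of all genes) and 2 fell (14.3%, against 4.07%), with *Tnfrsf19* included. *Tnfrsf26*, which lies in a cluster of related genes with *Tnfrsf22* and *Tnfrsf23*, read 94.9, 127 and 173 in control + vehicle, 190, 532, 265 and 187 in control + A83-01, 932, 501, 750 and 303 in *Smad2/3* cKO + vehicle and 299, 427, 703 and 348 in *Smad2/3* cKO + A83-01. It rose 4.45-fold with deletion (log2 2.15, SE 0.43, limma adjusted p = 0.00285), and with A83-01 the difference was 1.05 (adjusted p = 0.131) although the groups did not overlap. Its exons overlap *E230032D23Rik* on the opposite strand, and the counting is not stated to separate strands. Its call was lost without control + vehicle replicate 1 (adjusted p = 0.0192) or 2 (0.0135). *Tnfrsf1b*, the TNF receptor TNFR2, read 280 to 314 in control + vehicle and 501 to 616 in *Smad2/3* cKO + vehicle, a 1.84-fold rise (log2 0.88, SE 0.21, adjusted p = 0.00822). In control + A83-01 it read 378 to 500, with a log2 difference of 0.62 (adjusted p = 0.0671), and its call with deletion was lost on leaving out 9 of the 15 samples in turn, the highest adjusted p being 0.0314 without control + vehicle replicate 2.

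*Tnfrsf10b*, the mouse receptor for the death ligand TRAIL, went the other way. It read 926, 738 and 631 in control + vehicle and 304, 448, 417 and 354 in *Smad2/3* cKO + vehicle, with no overlap, a 2.004-fold fall (log2 -1.003, SE 0.19, limma adjusted p = 0.00222). Control + A83-01 lay between, at 653, 465, 453 and 493 (log2 -0.56, adjusted p = 0.0704). *Tnfrsf11b* encodes osteoprotegerin, the soluble decoy of the ligand RANKL. It read 131, 284 and 120 in control + vehicle and 42.4, 55.8, 22.6 and 4.3 in control + A83-01. *Smad2/3* cKO samples read 17.2, 20.9, 5.99 and 4.73 under vehicle and 13.1, 24.1, 2.64 and 5.08 with A83-01. Control + vehicle stood above all other samples, and the fall with deletion was 14.7-fold (log2 -3.88, SE 0.84, adjusted p = 0.00484). With A83-01 the log2 difference was -2.81 (adjusted p = 0.0413). The call with deletion was lost on leaving out 5 of the 15 samples in turn for *Tnfrsf11b* (highest adjusted p = 0.0314) and 2 for *Tnfrsf10b* (0.0172), with the direction kept. In the limma fit of *Smad2/3* cKO + vehicle and control + vehicle alone, *Tnfrsf10b* lost it (adjusted p = 0.0107) and *Tnfrsf11b* kept it (0.0038).

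*Tnfrsf18*, the lymphocyte co-stimulatory receptor GITR, rose with A83-01 in control organoids. It read 49.6, 43.5 and 58.1 in control + vehicle and 172, 119, 84.6 and 164 in control + A83-01, a 2.56-fold rise without overlap (log2 1.36, SE 0.30, limma adjusted p = 0.00941). In *Smad2/3* cKO + vehicle it read 77.5 to 93.1, also above every control + vehicle sample, with a log2 difference of 0.80 (adjusted p = 0.0822). This call was near the threshold: it was lost on leaving out 13 of the 15 samples in turn, the highest adjusted p being 0.05 without control + vehicle replicate 2, and in the fit of these 2 groups alone (adjusted p = 0.0577; 0.104 with the replicate block), and kept with all samples blocked on label number (0.0015). Its exons overlap *Gm16008* on the opposite strand. The 8 other tested TNF receptors were not called in either comparison. *Tnfrsf12a*, the highest of them, read 9959, 7213 and 7069 in control + vehicle and 3138, 2227, 6171 and 3241 in *Smad2/3* cKO + vehicle, which did not overlap (log2 -1.21, adjusted p = 0.0174). *Tnfrsf8*, the receptor CD30, read 79.2 to 113 and 5.05 to 45.3 in these groups (log2 -2.59, adjusted p = 0.0141). *Tnfrsf23*, a decoy receptor for TRAIL in mice, read 3253 to 5187 and 2146 to 3063 (log2 -0.57, adjusted p = 0.115). None of the 4 tested TNF ligands was called by limma in either comparison, and none had an unadjusted p below 0.05.

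Interleukin receptor chains, antagonists and binding proteins, 26 of the 77 tested members, held 5 of the 13 called with deletion. Of the 26, 3 rose (11.5%, against 5.17% of all genes) and 2 fell (7.69%, against 4.07%). *Il4ra* (ENSMUSG00000030748, GRCm38 chr7:125552120-125579474, plus strand) encodes the chain that interleukin-4 and interleukin-13 receptors share. It read 7046, 6249 and 9353 in control + vehicle and 2287, 2366, 2410 and 2632 in control + A83-01. The *Smad2/3* cKO samples read 1641, 2626, 3008 and 2180 under vehicle and 1717, 2051, 2519 and 1999 with A83-01. All 12 samples with drug or deletion lay below the lowest control + vehicle sample, and those 3 groups overlapped each other. The fall was 3.07-fold with A83-01 (log2 -1.62, SE 0.20, limma adjusted p = 0.000101) and 3.23-fold with deletion (-1.69, SE 0.20, adjusted p = 4.2e-05). Adding A83-01 to *Smad2/3* cKO organoids gave -0.17 (SE 0.18, adjusted p = 1). The effect of A83-01 differed between genotypes by 1.45 (SE 0.27, adjusted p = 0.011), short of the threshold, and passed it under 5 of 10 alternatives and without *Smad2/3* cKO + vehicle replicate 3 (1.58, adjusted p = 0.00573). An exon of *Gm44876* overlaps *Il4ra* on the opposite strand.

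*Il13ra1*, the chain that pairs with the *Il4ra* product in the interleukin-13 receptor of non-hematopoietic cells, differed in the opposite direction. It read 1884, 1858 and 2181 in control + vehicle, 2381, 3803, 5013 and 3177 in control + A83-01, 4366, 3476, 3487 and 5512 in *Smad2/3* cKO + vehicle and 5013, 3687, 3999 and 6398 in *Smad2/3* cKO + A83-01. All treated and knockout samples exceeded the 3 control + vehicle samples. It rose 2.10-fold with deletion (log2 1.07, SE 0.24, limma adjusted p = 0.00672), and the difference with A83-01 was 0.82 (adjusted p = 0.0416). Mean levels of *Il4ra* and *Il13ra1* were 1258 and 532 normalized counts per kilobase in control + vehicle and 393.8 and 1134 per kilobase in *Smad2/3* cKO + vehicle. *Il5ra*, the specific chain of the interleukin-5 receptor, read 332, 470 and 344 in control + vehicle, 807, 939, 1149 and 1480 in control + A83-01 and 1805, 1211, 561 and 1579 in *Smad2/3* cKO + vehicle. It rose 3.12-fold with deletion (log2 1.64, SE 0.35, adjusted p = 0.00407), and the A83-01 difference of 1.496 just missed the threshold (adjusted p = 0.0114). *Smad2/3* cKO + vehicle replicate 3 was the low sample for *Il5ra*. Leaving out 5 of the 15 samples in turn lost the call with deletion for *Il5ra* (highest adjusted p = 0.0224) and also 5 for *Il13ra1* (0.0314). In the limma fit of *Smad2/3* cKO + vehicle and control + vehicle alone, *Il5ra* lost it (adjusted p = 0.016) and *Il13ra1* kept it (0.00479).

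*Il18rap*, the accessory chain that makes the interleukin-18 receptor signal, was lowest where drug and deletion met. It read 252, 228 and 149 in control + vehicle, 36.7, 32.8, 71.2 and 11.1 in control + A83-01, 24, 21.2, 29 and 15.1 in *Smad2/3* cKO + vehicle and 3.95, 5.78, 2.81 and 0.928 in *Smad2/3* cKO + A83-01. The fall was 6.33-fold with A83-01 (log2 -2.66, SE 0.57, limma adjusted p = 0.00758) and 9.03-fold with deletion (-3.18, SE 0.57, adjusted p = 0.00153). Between the *Smad2/3* cKO groups, which did not overlap, the difference was -2.52 (SE 0.53, unadjusted p = 0.00026), but no adjusted p in that comparison passed (0.904). Between genotypes under A83-01 it was -3.04 (adjusted p = 0.027). The values near the bottom rest on few reads and their log2 differences depend on the pseudocount of 1. The A83-01 call was lost on leaving out 9 of 15 samples in turn (highest adjusted p = 0.0399, without control + vehicle replicate 2), and in the fit of these 2 groups alone (adjusted p = 0.0332; 0.0461 with the replicate block), and kept with all samples blocked on label number (0.00135). The deletion call was lost without control + vehicle replicate 1 or 2 (highest adjusted p = 0.0108).

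*Il2rb*, the β chain of the interleukin-2 and interleukin-15 receptors, was listed at 0 in all 3 control + vehicle samples. It read 1.87, 3.29, 89.2 and 42.8 in control + A83-01, 63.2, 29.4, 58.5 and 248 in *Smad2/3* cKO + vehicle and 239, 222, 221 and 298 in *Smad2/3* cKO + A83-01. The rise with deletion passed (limma adjusted p = 0.000646), but its size is set by the pseudocount and has no bound here: the log2 difference was 6.20 and ran from 3.08 to 9.50 over the alternatives. With A83-01 in control organoids the adjusted p was 0.0195, and replicates 1 and 2 of that group were far below replicates 3 and 4. *Ptprc*, the leukocyte marker CD45, moved with it. *Ptprc* lay between 12.5 and 38.5 in control + vehicle, between 68.5 and 236 after A83-01, and between 123 and 309 in *Smad2/3* cKO + vehicle (limma adjusted p = 0.00415 and 0.000813). *Laptm5*, another leukocyte marker, went from 207 to 1116 in control + vehicle down to 9.57 to 31.1 and 0 to 118. The summed level of the 4 general leukocyte markers was 277 to 1198 in control organoids under vehicle and 146 to 299 with A83-01, and 152 to 643 and 155 to 553 in *Smad2/3* cKO organoids, none of the 4 being at 0 throughout a group. Their part in the *Il2rb* values was not tested, and in bulk samples more cells of a type and more RNA per cell cannot be told apart. *Il2rg*, the common γ chain that *Il2rb* needs to signal, read 1.77 to 44.9 over the 15 samples and was not called.

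**Figure D4:**
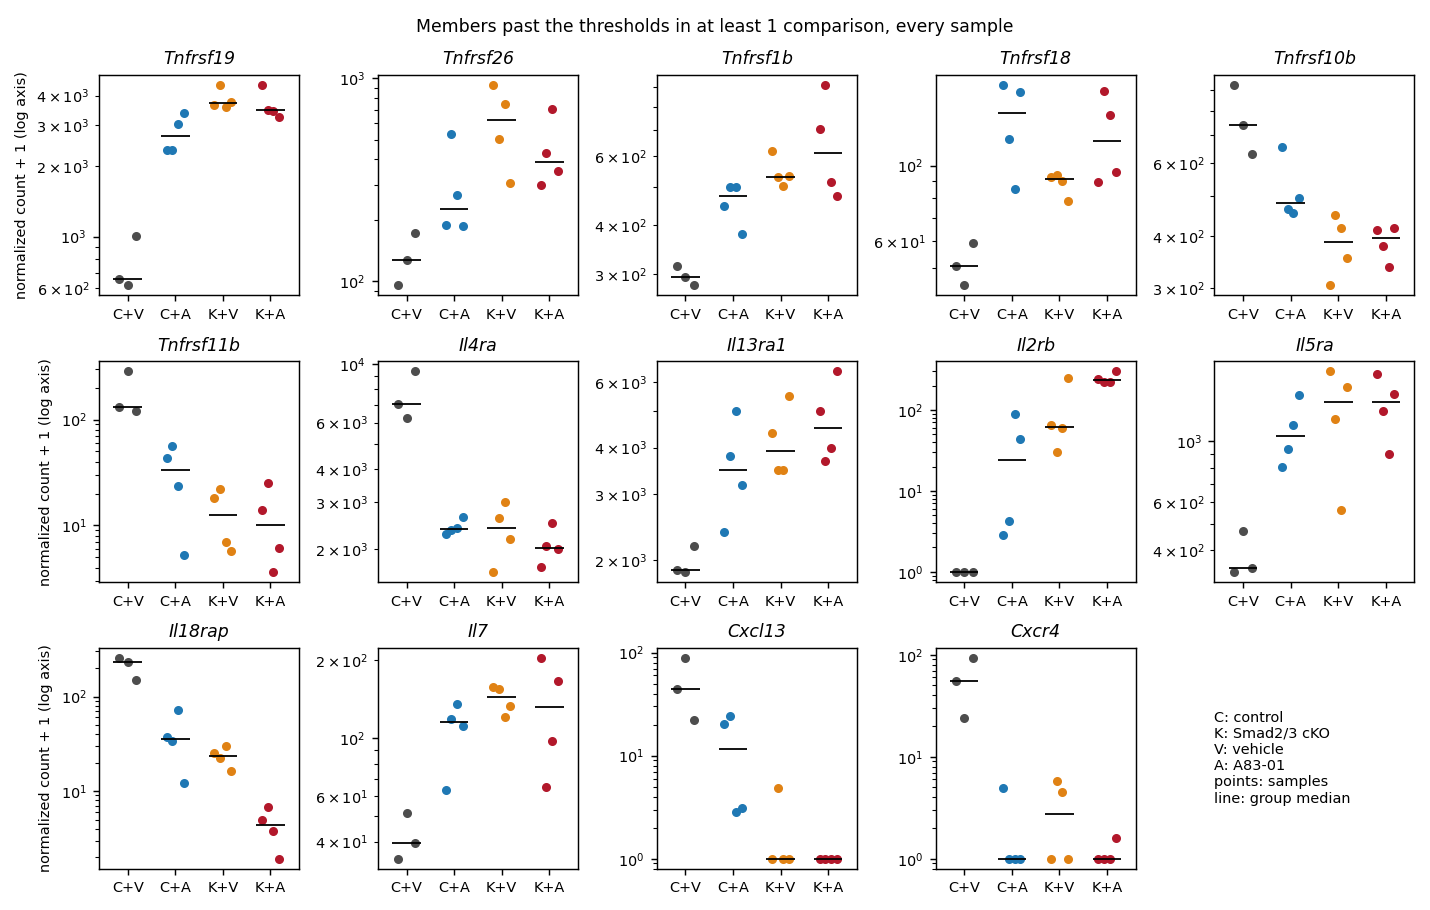
Each panel shows a member past the thresholds, with normalized counts plus 1 on a log axis for every sample (points) and the group median (line) in control (C) or *Smad2/3* cKO (K) organoids with vehicle (V) or A83-01 (A). *Tnfrsf19* lies at 620 to 1001 in control + vehicle and 2332 to 4460 in all other samples, and *Il4ra* at 6249 to 9353 and 1641 to 3008.

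Of the interleukins only *Il7*, a survival factor for lymphocytes, was called. It read 33.4, 50.8 and 38.5 in control + vehicle, 62.1, 118, 135 and 111 in control + A83-01, 158, 155, 120 and 133 in *Smad2/3* cKO + vehicle and 203, 64, 96.6 and 166 in *Smad2/3* cKO + A83-01. The 3 control + vehicle samples were the lowest of all 15. The rise with deletion was 3.43-fold (log2 1.78, SE 0.38, limma adjusted p = 0.00453), and the A83-01 difference was 1.33 (adjusted p = 0.0345). The call was lost on leaving out 6 of the 15 samples in turn (highest adjusted p = 0.0249), and *Gm16685* overlaps it on the opposite strand. *Il1a*, the highest interleukin, read 10027 to 14001 in control + vehicle and 14388 to 23001 in control + A83-01, which did not overlap (log2 0.66, SE 0.28, adjusted p = 0.143). *Il1f6* read 3054 to 7418 in control + vehicle and 2010 to 3230 in *Smad2/3* cKO + vehicle (log2 -0.95, SE 0.46, adjusted p = 0.164). *Il23a*, a subunit of interleukin-23, read 115 to 172 and 34.1 to 111 in these groups (log2 -1.44, adjusted p = 0.0281). *Il33*, an alarmin, read 900 to 2850 and 694 to 1601, which overlap.

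*Il1rn*, the interleukin-1 receptor antagonist, was spread widely within control organoids. It read 3067, 2203 and 206 in control + vehicle, 2520, 1529, 263 and 170 in control + A83-01, 109, 187, 166 and 147 in *Smad2/3* cKO + vehicle and 84.2, 152, 175 and 133 in *Smad2/3* cKO + A83-01. All 8 *Smad2/3* cKO samples were low, and control samples fell into high and low values within each treatment. The difference with deletion was -2.90 on the log2 scale (SE 0.91, limma adjusted p = 0.0374). Without control + vehicle replicate 3, the low sample of that group, it passed the thresholds. That sample was picked by its value, and with all samples the difference was not called.

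Chemokine receptors were scarce. *Cxcr4*, the receptor of CXCL12, fell in both comparisons: it read 54.3, 23.2 and 91.2 in control + vehicle and 3.97, 0, 0 and 0 in control + A83-01. The *Smad2/3* cKO + vehicle samples read 0, 4.75, 3.53 and 0, and with A83-01 0, 0, 0 and 0.586. Only the control + vehicle samples were above 5. The limma adjusted p was 0.00255 with A83-01 and 0.00354 with deletion, while the log2 differences of -5.06 and -4.46 depend on the pseudocount and ran from -7.59 to -2.46 and from -6.23 to -2.34 over the alternatives. The deletion call was lost on leaving out 2 samples in turn (*Smad2/3* cKO + vehicle replicates 1 and 4; highest adjusted p = 0.0129), and without control + vehicle replicate 1 or 3 the gene fell below the filter and was not tested. In the limma fit of *Smad2/3* cKO + vehicle and control + vehicle alone the deletion call was also lost (adjusted p = 0.0104). With all samples blocked on label number the deletion call held (0.00552). The A83-01 call held in the fit of the 2 control groups alone (adjusted p = 0.00963), was lost with the replicate block added (-4.87, adjusted p = 0.0201), and held with all samples blocked on label number (0.000203). *Cxcr4* reached the mean of 10 only through the control + vehicle samples, where it was high, and without the filter the adjusted p was 0.000779 and 0.00129. *Cxcr3*, *Cxcr5* and *Ccr1*, the other 3 tested receptors, were not called.

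Of 16 tested chemokine ligands, 1 was called. *Cxcl13*, the B cell attractant that binds CXCR5, read 43.7, 87 and 20.9 in control + vehicle, 19.2, 23.1, 1.82 and 2.12 in control + A83-01 and 0, 3.83, 0 and 0 in *Smad2/3* cKO + vehicle, and was listed at 0 in all 4 *Smad2/3* cKO + A83-01 samples. Its fall with deletion passed (limma adjusted p = 0.00218; log2 difference -4.90, from -7.43 to -2.33 over the alternatives), and the A83-01 difference was -2.45 (adjusted p = 0.107) with overlapping samples. The call was lost without control + vehicle replicate 1 (adjusted p = 0.012), and without replicate 2 the gene fell below the filter. *Cxcl13* reached the mean of 10 only through the control + vehicle samples, where it was high, and without the filter the adjusted p was 0.00106. *Cxcl14*, a chemokine of many epithelia, read 657, 434 and 516 in control + vehicle, 357, 220, 350 and 315 in control + A83-01, 158, 282, 330 and 297 in *Smad2/3* cKO + vehicle and 442, 451, 602 and 424 in *Smad2/3* cKO + A83-01. The samples with both drug and deletion overlapped those of control + vehicle and lay above the other 2 groups. No *Cxcl14* value passed the thresholds: the log2 difference was -0.79 with A83-01 in control (adjusted p = 0.0651), -1.04 with deletion (0.0124) and 0.88 with A83-01 in *Smad2/3* cKO (unadjusted p = 0.00242, adjusted p = 1), and the difference between genotypes was 1.67 (SE 0.36, adjusted p = 0.0283).

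Several abundant chemokine ligands fell into high and low samples within each treatment of the control organoids, along the number in the sample labels. Each sample carries a number, which is either well below or above 390 in control organoids, and the same numbers occur with and without A83-01. What the number stands for is not stated. A single number occurs in both genotypes, and another joins *Smad2/3* cKO + vehicle replicate 2 with *Smad2/3* cKO + A83-01 replicate 1, whose deviations from their group means correlated at 0.355. In controls of both treatments, 17 of 77 tested members (22.1%) were lower in every sample numbered 390 or more than in every sample below, against 5.27% of all genes, and 4 (5.19%) were higher, against 4.4%. Control samples that share a number deviated together (correlation 0.354 to 0.423). The split therefore rests on fewer numbers than samples, and the 2 treatments are not separate evidence for it. *Cxcl5* read 9134 to 20904 below 390 and 1236 to 2400 above it. *Ccl20* read 4838 to 11077 and 1061 to 1856, *Cxcl1* 2771 to 6685 and 625 to 1129, and *Ccl28*, a mucosal chemokine, 1944 to 4243 and 475 to 917. *Ccl2*, a monocyte attractant, read 205 to 610 and 22.1 to 49.9, and *Il1rn* 1529 to 3067 and 170 to 263. This split was noticed in the data, and with the number series as a term in the fit 0 of 13066 genes (0%) passed the limma thresholds. At an adjusted p below 0.05 there were 28 genes (0.214%), among them 1 member, *Ccl28* (log2 -1.72, SE 0.32, adjusted p = 0.0474). All 4 *Smad2/3* cKO + A83-01 samples have numbers below 390 and 2 of them read low (*Cxcl5* 20285, 9310, 2131 and 3370), so in that group the split does not follow the boundary. In *Smad2/3* cKO + vehicle it did: *Cxcl5* read 9585 and 20791 below 390 and 3898 and 6467 above it, and *Cxcl1* 2107 and 3963 against 1034 and 1056.

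**Figure D5:**
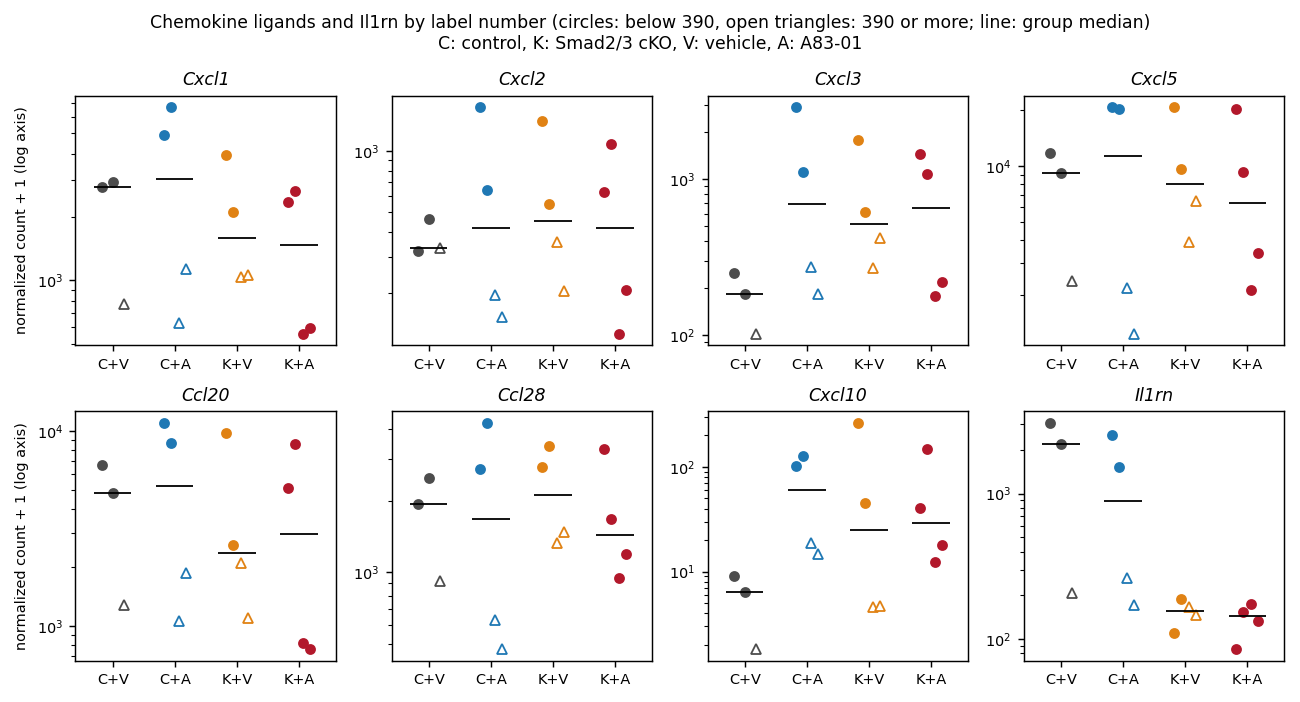
Panels show normalized counts plus 1 on a log axis for 7 chemokine ligands and *Il1rn* in every sample (circles, label number below 390; open triangles, 390 or more; line, group median) in the 4 groups (C, control; K, *Smad2/3* cKO; V, vehicle; A, A83-01). For *Cxcl5* the control samples below 390 lie at 9134 to 20904 and the others at 1236 to 2400, under either treatment.

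Within the 3 pairs of control samples that share a number, the ligands did not move alike. *Cxcl10*, the interferon-induced attractant of T cells, was higher with A83-01 in all pairs, by 3.50, 4.32 and 3.37 on the log2 scale, from 7.98, 5.42 and 0.805 in control + vehicle to 101, 127 and 17.6. In the comparison without pairs its adjusted p was 0.137, and it passed with the number series as a term but neither with the replicate block nor with the label number block. The *Cxcl10* values in control + vehicle are low, so that these log2 differences depend on the pseudocount. Its exons overlap *Art3* on the opposite strand. *Cxcl3*, a neutrophil attractant, was higher by 3.54, 2.61 and 1.43 (adjusted p = 0.214 without pairs). *Cxcl5* gave 0.82, 1.16 and -0.13, *Ccl20* 0.72, 0.84 and -0.27 and *Cxcl1* 0.83, 1.19 and -0.31, so that the third pair, with the number above 390, differed in sign. *Cxcl17* was lower in all 3 pairs, by -0.88, -0.85 and -2.11. Of the other tested ligands, *Ccl25* and *Cxcl15* were also higher in all 3 pairs, and *Cxcl13*, *Cxcl14* and *Cxcl16* lower. The share of all genes with the same sign in all 3 pairs was not counted. The chromosome 5 genes *Cxcl1*, *Cxcl2* and *Cxcl3* share 11 bases before their starts, shown here because all 3 encode neutrophil attractants. They are not all direct neighbors, as *Cxcl15* lies between *Cxcl3* and *Cxcl1*. Positions are GRCm38.p6, plus strand, at chr5:90890995-90891240, chr5:90903649-90903870 and chr5:90785851-90786100, and capitals mark NF-κB consensus matches and, in *Cxcl2*, a SMAD box on the opposite strand.
Cxcl1: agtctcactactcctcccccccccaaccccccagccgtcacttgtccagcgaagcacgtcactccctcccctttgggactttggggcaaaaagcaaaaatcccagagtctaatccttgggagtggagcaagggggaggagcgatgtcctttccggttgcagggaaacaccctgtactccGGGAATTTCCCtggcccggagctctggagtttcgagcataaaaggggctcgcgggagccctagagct
Cxcl2: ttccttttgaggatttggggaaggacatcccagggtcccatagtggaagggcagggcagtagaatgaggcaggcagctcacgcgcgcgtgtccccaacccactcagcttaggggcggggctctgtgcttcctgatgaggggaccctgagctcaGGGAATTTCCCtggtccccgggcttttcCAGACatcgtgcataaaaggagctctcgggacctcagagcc
Cxcl3: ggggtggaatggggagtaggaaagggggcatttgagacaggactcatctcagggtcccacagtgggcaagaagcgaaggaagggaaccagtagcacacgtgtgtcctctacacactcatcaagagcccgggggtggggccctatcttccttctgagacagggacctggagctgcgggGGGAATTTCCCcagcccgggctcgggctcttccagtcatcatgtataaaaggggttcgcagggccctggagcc
The run GGGAATTTCCC was picked as the longest that these 3 windows share, so its presence in them was fixed by that choice. It occurred in 11 of 27025 promoters (0.0407%), these 3 included. The windows of *Cxcl1* and *Cxcl2* were cut by 4 and 28 bases, where annotated exons begin. *Cxcl5* and *Ccl2* have no entry in the RefSeq table used. Reads of *Cxcl1*, *Cxcl2* and *Cxcl3*, which are near-identical in parts, may be shared among them.

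Adding A83-01 to *Smad2/3* cKO organoids changed 0 of 77 members, and limma called 0 of 13066 genes (0%) in that comparison. 3 members (3.9%) had an unadjusted p below 0.05, against 3.11% of all genes, and the samples of 2 members did not overlap (2.6%, against 2.91% of all genes), namely *Il18rap* and *Cxcl14*. *Smad2/3* cKO + A83-01 and control + A83-01 also differed in 0 members, where 5 genes (0.0383%) were called, 0.0306% of all higher and 0.00765% lower. At an adjusted p below 0.05, *Il18rap* was the only member there, against 46 genes (0.352%). In that comparison 7 members (9.09%) did not overlap, against 6.12% of all genes, and 16 members (20.8%) had an unadjusted p below 0.05, against 11.1% of all genes. *Smad2/3* cKO + vehicle and control + A83-01, the deletion and the drug set side by side, differed in 0 members and 0 genes (0%) by limma, with 10 members (13%) at an unadjusted p below 0.05 against 9.02% of all genes. At an adjusted p below 0.05 they differed in 2 genes (0.0153%), neither a member, and 3 members (3.9%) did not overlap, against 3.47% of all genes, namely *Tnfrsf19*, *Tnfrsf1b* and *Tnfrsf10b*. A log2 difference that misses the threshold does not show equal levels: for *Tnfrsf19* it was 0.50 (SE 0.17) between these groups, with every *Smad2/3* cKO + vehicle sample above every control + A83-01 sample.

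Related genes outside the name patterns were counted from fixed lists. Of 31 tested genes of the same families under other names, 3 rose and 1 fell with A83-01 (9.68% and 3.23%, against 3.05% and 1.86% of all genes) and 4 rose and 1 fell with deletion (12.9% and 3.23%, against 5.17% and 4.07%). *Csf1*, the macrophage growth factor, rose in both, from 2047, 3014 and 4823 in control + vehicle to 30380, 30577, 52939 and 51990 in control + A83-01 and 53274, 45553, 25595 and 54824 in *Smad2/3* cKO + vehicle. That is 12.9-fold (log2 3.69, SE 0.37, limma adjusted p = 1.97e-05) and 13.9-fold (3.79, SE 0.37, adjusted p = 8.78e-06), with no overlap, and the *Smad2/3* cKO + A83-01 samples read 33039 to 86616. *Lifr*, the receptor of leukemia inhibitory factor, which is needed for implantation, read 718, 475 and 1564, then 2638, 2550, 11081 and 8641, and 10806, 6786, 9127 and 11883 in these groups (log2 2.63 and 3.54, adjusted p = 0.00277 and 0.000173). *Flt3l*, a dendritic cell growth factor, rose by 1.37 and 1.316, and *Cx3cl1*, the membrane chemokine fractalkine, fell with log2 values of -1.52 and -1.44. The A83-01 calls of *Flt3l*, *Cx3cl1* and *Lifr* and the deletion calls of *Flt3l* and *Cx3cl1* were lost on leaving out control + vehicle replicate 1, and that of *Csf1* held under every alternative.

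Of 35 genes for NF-κB and receptor adaptors, 0 rose and 1 fell with A83-01 (2.86%, against 1.86% of all genes), and 0 rose and 3 fell with deletion (8.57%, against 4.07%). *Tnfaip3*, the NF-κB inhibitor A20, read 1552, 1695 and 953 in control + vehicle, 294 to 555 in control + A83-01 and 217 to 589 in *Smad2/3* cKO + vehicle, a fall in both (log2 -1.70 and -1.93, limma adjusted p = 0.00443 and 0.00113). *Nfkb2* and *Traf3ip2* fell with deletion (log2 -1.15 and -1.29). Of 22 JAK, STAT and SOCS genes, 0 were called with A83-01 by limma and 5 (22.7%) had an unadjusted p below 0.05, against 26% of all genes. With deletion 1 rose (4.55%, against 5.17% of all genes) and 1 fell (4.55%, against 4.07%), shares near those of all genes. *Stat5b* was the one that rose (log2 0.89, limma adjusted p = 0.0012). *Stat6*, the factor that interleukin-4 activates, was the one that fell (-0.63, adjusted p = 0.00411). *Stat6* read 3142, 3899 and 4160 in control + vehicle and 1988 to 2753 in *Smad2/3* cKO + vehicle. Over the 35 NF-κB and adaptor genes the median log2 difference was -0.21 with A83-01 and -0.26 with deletion, beside -0.01 and 0.01 for all genes.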

How the data were processed

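Per the labels and the study's methods, RNA of epithelial organoids was made into libraries with a SMART-Seq v4 kit and quantified with Salmon 1.4.0 on GRCm39. The deposited normalized signal holds the estimated counts per gene that the authors divided by 1 size factor per sample (DESeq2 1.32.0). Median ratios were 1.01137 in every sample over 12745 genes above 0 in all samples. Whole reads could not be recovered, so no count model was run and depth beyond these sums is unknown. The smallest gene sum was 6.46, 0 columns lacked a sample, and 16697 of 16729 genes had a symbol (17 symbols shared by 2 identifiers) in the GRCm38 annotation, which also gave positions.

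Here log2(value + 1) of the 13066 genes with a mean of at least 10 was fitted with limma 3.58.1 in R 4.3.3 (lmFit, contrasts.fit, eBayes with trend) over all 15 samples in 1 fit, with Benjamini-Hochberg adjustment over all genes tested. Fold changes are on that log2 scale and understate changes of low genes. Calls needed an adjusted p below 0.01 and a fold above 1.4 or below 0.714. The steps were tested on simulated data. Python 3.11.15, pandas 2.3.3, numpy 2.4.6 and matplotlib 3.10.9 made tables and plots. Genes were named if past the thresholds in any comparison, if among the 2 members of their role with the highest mean over the 15 samples, if among the 2 members just above or the 2 just below the filter, if among the 5 related genes with the largest called change per comparison, and *Smad2* and *Smad3* as targeted genes. Every other gene was named after its values were seen. The values of 1 related gene that this rule names are not reported here. The members and lists were chosen with earlier results of these data known. Replicate numbers paired the samples of control + A83-01 and control + vehicle (same-number correlation of deviations 0.354 to 0.423), with the number taken from the sample titles. They did not pair the samples throughout in any other comparison. Between the *Smad2/3* cKO groups the correlation was -0.0634 and -0.166 for replicates 1 and 2, and 0.374 and 0.375 for replicates 3 and 4. RNA of the genotypes came from different mice, and p-values measure the spread between these samples. Alternatives changed the pseudocount, filter, scaling, variance model, samples, block and thresholds.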

Additional observations from a re-analysis of the deposited data

Results flagged for a closer look

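Within groups of 4 samples, 9 of 107 groups examined had a sample far from the others. The rule has a nominal rate of about 1 in 20 groups, and its rate for values like these was not measured. *Cxcl16* read 8034 in *Smad2/3* cKO + A83-01 replicate 2 and 2772 to 3322 in the other 3 samples. The same library stood apart for *Smad2*, at 1211 against 804 to 854, and for *Smad3*, at 797 against 1648 to 1689. *Il1a* read 18053 in *Smad2/3* cKO + vehicle replicate 1 and 12838 to 13434 in the others. *Il2rb* read 248 in *Smad2/3* cKO + vehicle replicate 4 and 29.4 to 63.2 in the others, and *Cxcr3* read 30.8 in replicate 3 of that group against 6.85 to 10.8. Near 0, *Cxcl13* read 3.83 in *Smad2/3* cKO + vehicle replicate 2, *Cxcr4* read 3.97 in control + A83-01 replicate 1, and *Cxcr4* read 0.586 in *Smad2/3* cKO + A83-01 replicate 4, with the other samples of each group listed at 0. Where the other samples are all at 0, any value above 0 is flagged.

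The effect of A83-01 on *Tnfrsf19* differed between genotypes by -1.97 on the log2 scale (limma adjusted p = 0.000863), being 1.88 in control and -0.09 in *Smad2/3* cKO organoids.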

How the results depend on the processing

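The 204 results of named genes each have a value under every alternative and left-out sample that tested the gene. Counted over these values, and not over results, 0 reversed, 161 lost a call and 28 gained one. The count of members changed by A83-01 in control organoids (5) was 3 with a pseudocount of 0.1, 2 with a minimum mean of 50, 3 with the samples of both groups only, and 10 at an adjusted p below 0.05. It ran from 2 to 5 when samples were left out. For deletion (13) it ran from 3 to 14 when samples were left out and from 10 to 19 under the other settings without a block. The numbers paired the A83-01 samples, and the replicate block, fitted on the samples of both groups only, gave 2 members there and 2 with deletion, where the numbers did not pair the samples. A block by label number gave 13 with A83-01. For *Smad2/3* cKO + A83-01 against control + A83-01 (0), the label number series as a term, chosen after seeing the data, gave 1 (*Il2rb*) and an adjusted p below 0.05 gave 1 (*Il18rap*). For the difference between genotypes (1), a pseudocount of 10, quantile normalization, sample weights and the number series gave 2 each, the label number block and an adjusted p below 0.05 gave 3 each, and leaving out samples gave 1 to 2. Scaling to equal sums moved the median of all genes by -0.116 with A83-01 in control organoids. Low genes are limited by depth, since *Cxcr4*, *Cxcl13* and *Il2rb* have samples at 0 and no bounded fold.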
